A study of Marchantia polymorpha with 78 samples.

Results

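The genes described here kept a high and nearly level mRNA abundance in the liverwort Marchantia polymorpha through every light treatment of a 24 h time course. They were chosen from the authors' table of group means by 2 conditions. A gene had to be at 50 TPM or more in each of 26 groups, and the difference between its highest and its lowest group mean had to be under 0.5 on the log2(TPM + 1) scale, which is called its range below. TPM is transcript abundance per length, scaled to the same total in each library. Of 19355 genes in the table, 2445 reached the level in every group and are called abundant below, and 120 of these, 4.91%, also met the limit on the range. They are called the stable genes. Of the 120, 22 carry a gene symbol and 98 are known here by their identifier alone, with no role given to them.

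RNA came from thalli of Tak-1, a male wild-type line. All groups shared a history: 8 days of unbroken white light from the gemma stage, at 23 °C on medium with sucrose, and then 24 h without light. One group was sampled at that point (time zero), and the others after a further 30 min, 60 min, 180 min, 12 h or 24 h in darkness or in white, blue (emission maximum 430 nm), red (660 nm) or far-red (730 nm) light. The labels give intensities in µmol per square metre and second. Red light had 80 to 90, white light 50 to 60, and both far-red and blue light 30 to 40. Only blue and far-red light had equal stated ranges, so between other lights colour and intensity cannot be told apart. Each of the 26 groups had 3 biological replicates, each a pool of 3 plants, giving 78 poly(A) RNA libraries. The labels say that each plate held 3 biological replicates but not which libraries shared a plate. An effect of the plate therefore cannot be told apart from that of the treatment here. Depth per library is unknown, since the files hold TPM and no counts. In whole thalli, fewer cells of a type and less RNA per cell cannot be told apart.

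Genes of steady abundance often serve processes that every living cell runs, such as the cytoskeleton and the traffic of vesicles between the endoplasmic reticulum, the Golgi and the vacuole. Rab and ARF proteins are small GTPases that mark membranes and recruit coats and tethers, and SNARE proteins on vesicle and target membranes pair to drive fusion. Actin and elongation factor genes are in common use as internal references in quantitative PCR, where the reference is assumed to keep its level between samples.

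The selection used the group means, so the ranges of the stable genes are a description and carry no test. Their ranges ran from 0.21 to 0.50 with a median of 0.44, beside a median of 1.09 and a highest value of 5.14 over the 2445 abundant genes. The limit cut through a continuous distribution. There were 4 genes with a range between 0.2 and 0.3, 11 between 0.3 and 0.35, 17 between 0.35 and 0.4, 36 between 0.4 and 0.45 and 52 between 0.45 and 0.5, followed by 68 between 0.5 and 0.55. The 5 members nearest to the limit were Mp4g09690, MpSEC22, Mp1g10680, Mp7g04290 and Mp5g18860, at 0.494 to 0.4999. The 5 abundant genes just past it were Mp5g02250, Mp1g14480, Mp1g19350, Mp1g18980 and MpPKC7, at 0.5002 to 0.503. At the limit on the level, the lowest group means of Mp1R-MYB8, Mp3g18370 and MpSEC22 were 50.6, 51.0 and 51.2 TPM. MpGOS12, Mp1g00930 and Mp4g00980 missed it at 49.9, 49.4 and 49.0 TPM, with ranges under 0.5.

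**Figure D1:**
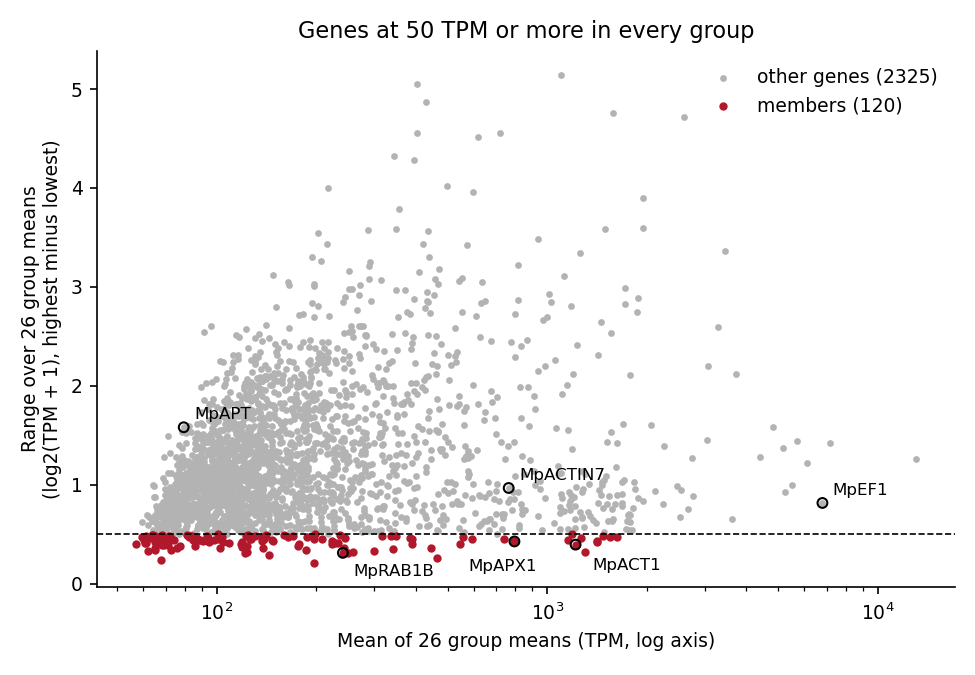
Range over the 26 group means on the log2(TPM + 1) scale (vertical axis) against the mean of the group means in TPM (horizontal log axis) for 2445 genes at 50 TPM or more in every group. The 120 stable genes (red) lie under the dashed limit of 0.5 as the lower edge of one continuous cloud, and MpEF1, MpACTIN7 and MpAPT (circled grey points) lie above it.

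Mean abundance of the 120 genes ran from 57.0 to 1631 TPM with a median of 124 TPM. Of them, 47 averaged under 100 TPM and 10 averaged 1000 TPM or more. Genes with a range under 0.5, counted by mean level alone, made up 2.98% of 2217 genes at 50 to 100 TPM, 3.01% of 1230 genes at 100 to 200 TPM, 4.10% of 512 genes at 200 to 500 TPM, 3.52% of 142 genes at 500 to 1000 TPM and 7.14% of 140 genes at 1000 TPM or more. Together the stable genes held between 2.97% (white light at 24 h, replicate 3) and 3.42% (darkness at 24 h, replicate 3) of all TPM in a library, with a median of 3.17%. By the chromosome in their identifiers, 28 lay on chromosome 1, 17 on 2, 21 on 3, 7 on 4, 9 on 5, 16 on 6, 14 on 7 and 8 on 8. This was 2.45% (chromosome 4) to 6.48% (chromosome 3) of the abundant genes of a chromosome. None of the 11 abundant genes of the V chromosome was among them. In the order of identifiers 3 pairs stood next to each other, namely Mp3g08610 with Mp3g08620, Mp4g08880 with MpAPX1, and Mp8g06140 with Mp8g06150.

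The smallest range belonged to Mp1g14540, at 172 TPM in its lowest, 196 TPM in its median and 217 TPM in its highest library. Its group means differed by at most 1.15-fold, between darkness at 24 h (178, 183 and 186 TPM) and white light at 12 h (211, 216 and 205 TPM). These 2 groups did not overlap, though the SD of its group means (0.057, log2) was close to the SD between replicates (0.053, log2). Next came Mp2g03120 (range 0.24; 59.9 to 78.1 TPM over the libraries), Mp3g18880 (0.26; 426 to 529 TPM) and Mp1g12990 (0.29; 125 to 166 TPM). Mp3g18880 showed the tightest replicates of these, with an SD of 0.027, and its red-light libraries at 180 min (523, 529 and 509 TPM) stood above those of far-red light at 30 min (428, 441 and 433 TPM). Mp4g02150, Mp3g01990, Mp3g11670 and Mp3g08620 had ranges of 0.31 to 0.32, as did MpRAB1B and MpC1-RGPs.1 described further down.

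The 10 most abundant stable genes averaged 1157 to 1631 TPM, and 9 of them have no symbol. Mp6g02810 was the highest, at 1397, 1618 and 2052 TPM in its lowest, median and highest library. Its lowest group was white light at 24 h (1428, 1462 and 1397 TPM) and its highest was darkness at 60 min (2043, 2052 and 1863 TPM). Mp4g20310 was likewise lowest in white light at 24 h (1327, 1334 and 1330 TPM) and highest in darkness at 24 h (1833, 1874 and 1807 TPM). Those 2 groups lay well apart for both genes. Mp6g19610, Mp2g00580, Mp1g10680 and Mp1g07120 also had their highest group mean in darkness, at 24 h, 60 min, 60 min and 30 min. Mp5g16750 was highest in red light at 24 h (1560, 1559 and 1651 TPM) and lowest in blue light at 30 min (1122, 1131 and 1205 TPM). Mp3g11670 was highest in far-red light at 24 h (1463, 1437 and 1414 TPM). Mp4g04410 read 868 TPM in replicate 1 of darkness at 12 h beside 1401 and 1453 TPM in the other replicates, and its range over the 78 single libraries was 0.97 with that library and 0.50 without it. The range over its group means was 0.42 either way.

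A limit on group means is easier to meet than a limit on libraries. Over the 78 single libraries, the ranges of the stable genes ran from 0.31 to 0.97 with a median of 0.54, and 33 of the 120 stayed under 0.5, 92 under 0.6 and 120 under 1. The pooled SD between replicates had a median of 0.052 (log2) over the stable genes and of 0.066 over all abundant genes. The SD of the 26 group means had a median of 0.117 beside 0.301, which the selection fixed. The ratio of these SDs had a median of 2.14 for the stable genes and of 4.24 for all abundant genes. It sets a spread of means of 3 libraries over a spread of single libraries, so it serves only to compare gene sets. With limma's moderated F test (Benjamini-Hochberg adjusted p under 0.05, no limit on the fold), 120 of the 120 genes differed among the 26 groups, beside 98.7% of the 13054 genes tested. The differences from darkness at the same times passed for 118 stable genes in white light, beside 94.7% of all genes tested, for 117 in blue light, beside 95.1%, for 116 in red light, beside 95.8%, and for 108 in far-red light, beside 84.3%. Continued darkness against time zero gave 89, beside 74.5%. The selection used these contrasts, so nothing is read from these counts beyond the fact that small differences passed the test as well. With a log2 difference of 1 or more also required, the selection leaves 0 of the 120 in any comparison, where 66.5% of all genes tested passed among the 26 groups, 37.4% in white, 37.9% in blue, 42.1% in red and 11.2% in far-red light, and 3.97% in continued darkness.

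Small GTPases of membrane traffic made up 5 of the 22 stable genes with a symbol. Of 31 measured Rab, ARF, ARF-like and SAR1 genes, 16 were abundant and 5 of these, 31.3%, were stable, beside 4.91% of all abundant genes. The median range of the 16 was 0.58, beside 1.09. This list was written with earlier results of these data known, and 5 genes are few.

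MpRAB1B (Mp3g00710), a Rab of the step from the endoplasmic reticulum to the Golgi, was at 210, 240 and 278 TPM in its lowest, median and highest library, with a range of 0.31. Its lowest group was white light at 24 h (220, 216 and 215 TPM), level with time zero (217, 217 and 218 TPM), and its highest was blue light at 180 min (273, 260 and 273 TPM). The libraries of the latter lay above those of both others. MpRAB5 (Mp1g08940), a Rab of endosomes, had a range of 0.40 and was lowest in white light at 24 h (100, 102 and 98.6 TPM) and highest at time zero (130, 135 and 133 TPM). MpRAB6 (Mp5g03960), a Rab of the Golgi, had a range of 0.49, with 117, 113 and 110 TPM in white light at 24 h and 161, 162 and 156 TPM in darkness at 12 h. All 3 Rab genes thus had their lowest group mean in white light at 24 h. In darkness at 24 h MpRAB6 (156, 156 and 162 TPM) and MpRAB5 (115, 120 and 121 TPM) lay above white light with no overlap.

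The 2 stable ARF genes had their lowest group means elsewhere. MpARFA1 (Mp7g13050), of the class that recruits vesicle coats at the Golgi, was the most abundant of the 5 GTPases, with 343, 383 and 481 TPM in its lowest, median and highest library. It was lowest in far-red light at 180 min (343, 359 and 348 TPM) and highest in red light at 24 h (452, 458 and 481 TPM). These picked extremes did not overlap. MpARFA3 (Mp2g11170) was at 48.2 to 79.0 TPM over the libraries, lowest in white light at 12 h (48.2, 52.8 and 53.6 TPM) and highest in darkness at 180 min (67.9, 79.0 and 71.5 TPM). Its close relative MpARFA2 was the list's widest abundant gene, with a range of 1.43. MpARFA2 held 903, 847 and 889 TPM in white light at 24 h and 2399, 2320 and 2384 TPM in darkness at 24 h, a ratio of group means of 2.69. MpRAB2A came next with a range of 1.39, between 141 and 371 TPM in the same 2 groups. Similar ARF genes can share reads, and no sequence was compared here. The way shared reads were counted is not given in the sources used here, so the split of reads among them is uncertain. Counted after the values were seen, 10 of the 16 abundant GTPase genes had their lowest group mean in white light at 24 h, stable or not, beside 9.86% of all abundant genes.

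**Figure D2:**
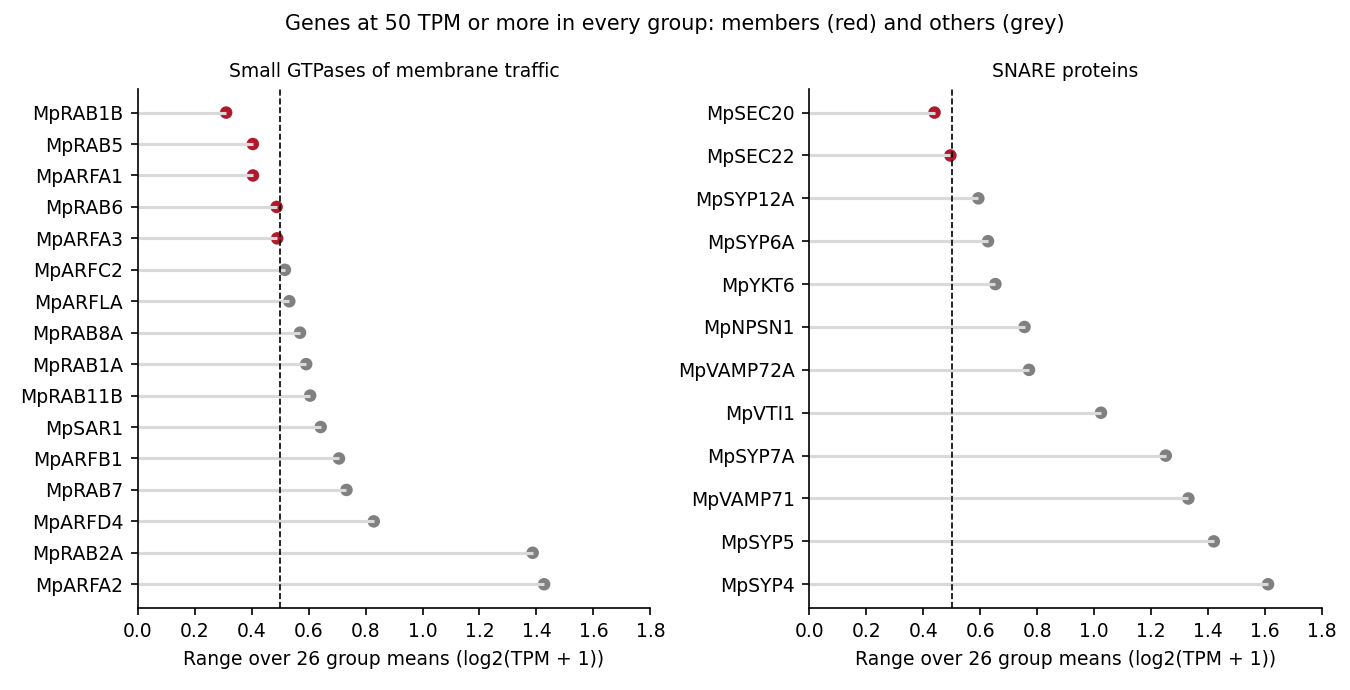
Range over the 26 group means on the log2(TPM + 1) scale (horizontal axis) of the abundant small GTPase genes (left, 16 genes) and SNARE genes (right, 12 genes), with the limit of 0.5 as a dashed line and stable genes in red. In both lists the stable genes are the low end of a series that runs to 1.43 (MpARFA2) and 1.61 (MpSYP4).

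Of 30 measured SNARE genes, 12 were abundant, 2 of these were stable and the median range of the 12 was 0.76. This list was added after values were seen. Both stable members, MpSEC20 and MpSEC22, are SNAREs of traffic between the endoplasmic reticulum and the Golgi. MpSEC20 (Mp1g13670) was at 49.9, 60.3 and 71.7 TPM in its lowest, median and highest library. MpSEC22 (Mp2g11050) stood near both limits, with 48.4, 67.1 and 75.3 TPM. It was low after 24 h of white (51.3, 54.0 and 48.4 TPM), blue (52.5, 54.1 and 49.9 TPM) and red light (52.0, 53.7 and 54.2 TPM) and high in darkness at that time (69.2, 69.7 and 75.3 TPM). None of the libraries of those 3 lights reached the dark ones, and in log2 units blue light lay 0.45 and red light 0.42 under darkness. The widest abundant SNARE genes were MpSYP4, at 52.7 TPM in red light at 24 h and 163 TPM in darkness at 12 h, and MpSYP5, at 75.1 TPM in red light at 24 h and 203 TPM in far-red light at 180 min.

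The actin genes had unequal ranges. MpACT1 (Mp6g10990), the only stable gene with a symbol above 1000 TPM on average, was at 1047, 1212 and 1471 TPM in its lowest, median and highest library, with a range of 0.39. Both ends of that range lay in darkness, at 60 min (1047, 1062 and 1136 TPM) and at 24 h (1403, 1390 and 1471 TPM), with time zero between them (1279, 1235 and 1200 TPM). MpACT2 (Mp5g23030) was at 86.5, 108 and 131 TPM in its lowest, median and highest library, with a range of 0.41. It was lowest in far-red light at 180 min (94.9, 94.6 and 90.7 TPM) and highest in white light at 60 min (131, 122 and 121 TPM). MpACTIN7 (Mp6g11010), whose identifier lies close to that of MpACT1, was not stable. It stood at 664, 659 and 655 TPM at time zero and at 1162, 1185 and 1102 TPM in blue light at 24 h. Its group means differed by up to 1.95-fold, between darkness at 60 min (588 TPM) and blue light at 24 h (1150 TPM). Actin copies share sequence, so the split of reads among the 3 is uncertain. Among tubulin genes with a symbol only MpTUB2 was abundant, and it had a range of 1.06. It went from 183, 187 and 193 TPM in darkness at 60 min to 392, 397 and 390 TPM in red light at 180 min.

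Among 14 measured genes of the kinds used as quantitative PCR references that symbols name (actins, tubulins, MpAPT, MpEF1 and subunits of protein phosphatase 2A), 12 were abundant and 3 were stable, with a median range of 0.84. MpEF1, the elongation factor gene in use as a Marchantia reference, was at 4557, 7060 and 8564 TPM in its lowest, median and highest library. Its lowest group was red light at 24 h (5066, 4729 and 4557 TPM) and its highest far-red light at 24 h (8564, 8482 and 8206 TPM), a range of 0.82 between 2 lights at 1 time. MpAPT, adenine phosphoribosyltransferase, had the widest range of the 12, 1.58. It held 58.8, 57.9 and 64.4 TPM at time zero, 163, 157 and 162 TPM in red light at 24 h and 51.8, 54.9 and 52.6 TPM in far-red light at 180 min. The red-light libraries stood clear of both other groups.

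Protein phosphatase 2A is a major serine/threonine phosphatase. All 6 measured genes of its subunits that carry a symbol were abundant, and 1 was stable, MpPP2A_B''_FASS2 (Mp6g03680). The counterpart of FASS in Arabidopsis is a regulatory subunit needed for ordered cortical microtubules. MpPP2A_B''_FASS2 was at 53.0, 64.9 and 82.4 TPM in its lowest, median and highest library, with a range of 0.42. The others had ranges of 0.53 (MpPP2A), 0.64 (MpPP2A_B), 0.86 (MpPP2A_B''_FASS1), 0.91 (MpPP2A_A) and 1.13 (MpPP2A_B').

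**Figure D3:**
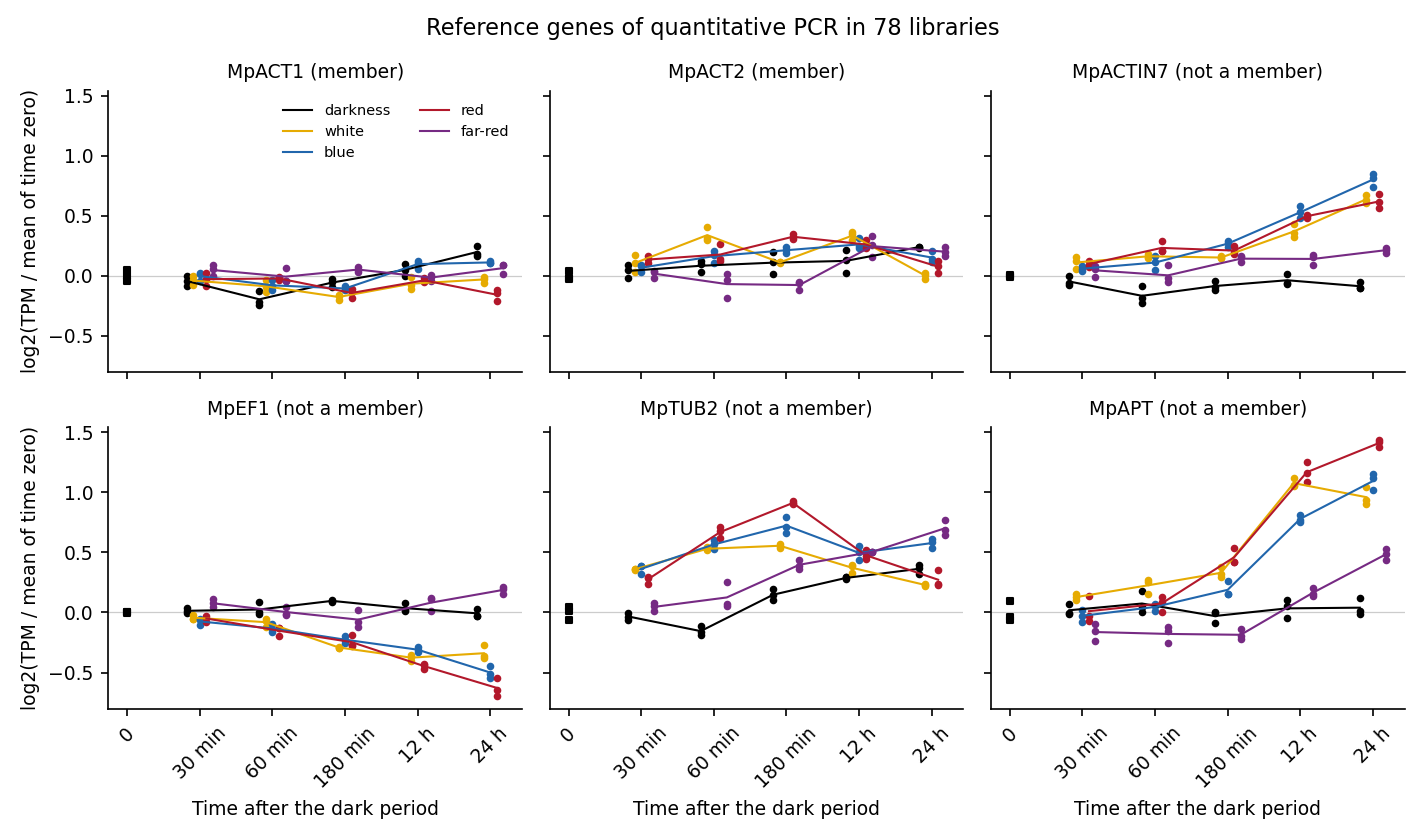
Abundance of 6 reference genes in each of 78 libraries as log2 of TPM over the mean of the time-zero libraries (vertical axis) by time and light (horizontal axis, not to scale); points are libraries, lines join the means of 3 libraries, and black squares are time zero. All points of MpACT1 and MpACT2 lie within 0.5 of 0, MpEF1 is lower in white, blue and red light at 24 h than in darkness, and MpAPT and MpACTIN7 are higher in these lights.

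A ratio of 2 genes within a library does not depend on how libraries are scaled. Set against MpACT1, the log2 ratio of MpPP2A_B''_FASS2 ran from -4.45 ± 0.047 (SD, n = 3) in darkness at 24 h to -4.01 ± 0.10 (SD, n = 3) in far-red light at 12 h, a range of 0.44. That of MpACT2 had a range of 0.60, that of MpPP2A 0.68 and that of MpPP2A_B 0.70. Wider ratios were those of MpEF1 (0.83), MpPP2A_A (0.87), MpPP2A_B''_FASS1 (1.02), MpTUB2 (1.06), MpACTIN7 (1.06), MpPP2A_B' (1.30) and MpAPT (1.81). For MpAPT the ratio went from -4.60 ± 0.061 (SD, n = 3) in far-red light at 180 min to -2.79 ± 0.056 (SD, n = 3) in red light at 24 h. Such a ratio shows unequal change of the 2 genes and does not tell which one moved.

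Proton pumps of the vacuole gave 1 stable gene among 3 abundant ones. MpVHA-a (Mp3g15140), the membrane subunit of the V-type ATPase through which protons pass, was at 284, 351 and 425 TPM in its lowest, median and highest library. Both extremes of its group means lay in red light, at 180 min (304, 284 and 297 TPM) and at 24 h (413, 406 and 414 TPM). The pyrophosphatase gene MpAVP3 was just past the limit (0.54) and MpAVP2 had a range of 1.08.

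Stable genes of metabolism and of the cell wall came 1 by 1. MpC1-RGPs.1 (Mp2g10790), of the reversibly glycosylated polypeptides that make the furanose form of UDP-arabinose for the cell wall, was at 211, 251 and 286 TPM in its lowest, median and highest library, with a range of 0.31. MpKCR1 (Mp1g11150), of the reductases that elongate very-long-chain fatty acids, was lowest and highest in red light, at 30 min (127, 132 and 129 TPM) and 180 min (181, 172 and 172 TPM). MpAPX1 (Mp4g08890), an ascorbate peroxidase that removes hydrogen peroxide, was the second most abundant stable gene with a symbol, at 685, 780 and 1001 TPM in its lowest, median and highest library. It was highest in red light at 24 h (1001, 923 and 913 TPM), above all 3 libraries of darkness at that time (731, 734 and 751 TPM). Its relatives MpAPX3 and MpAPX4 had ranges of 1.76 and 1.77, and the 4 abundant ascorbate peroxidase genes a median of 1.16. MpGH17.16 (Mp6g09930), of a glycoside hydrolase family acting on beta-1,3-glucans, was higher in blue (116, 108 and 115 TPM) and white light (112, 108 and 105 TPM) at 180 min than in darkness (80.2, 78.4 and 94.5 TPM), with no overlap. MpPOD148 (Mp7g07630) was the stable gene among 4 abundant class III peroxidases of 164 measured. It was lowest in far-red light at 12 h (65.2, 70.3 and 68.2 TPM) and highest in red light at 60 min (92.6, 101 and 92.6 TPM), and the widest of the family, MpPOD164, had a range of 3.42. Both peroxidase lists were added after values were seen.

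Signalling and turnover genes were few as well. MpATG7 (Mp2g07850), the enzyme that activates ATG8 for autophagy, had a range of 0.47 and was lowest in red light at 24 h (53.8, 57.9 and 54.0 TPM) and highest in far-red light at 12 h (80.0, 72.9 and 77.7 TPM). The abundant ATG8 genes themselves were wider, MpATG8a with 1.47 and MpATG8b with 1.92, and 5 of the 6 abundant autophagy genes were not stable. MpMPK2 (Mp6g21400), a MAP kinase, was at 70.6, 91.3 and 108 TPM in its lowest, median and highest library. It was the stable gene of 9 abundant MAP kinase pathway genes, whose median range was 0.98. These lists too were added after values were seen. The gene Mp1R-MYB8 (Mp3g05000), of the MYB transcription factors, was low in red light at 24 h (52.4, 51.8 and 47.7 TPM) and high in far-red light at 12 h (76.3, 69.6 and 67.8 TPM). MpS1Fa-like (Mp5g09660) was highest in darkness at 60 min (106, 114 and 87.1 TPM), where 1 library of the 3 stood lower than the others. MpIDI2 (Mp6g12890) was higher in red (82.6, 77.6 and 80.4 TPM) and white light (75.6, 84.3 and 79.2 TPM) at 24 h than in darkness (62.1, 67.7 and 64.0 TPM). MpPAS2b (Mp6g04150) was lowest in white light at 24 h (55.6, 50.8 and 51.7 TPM) and highest in darkness at that time (70.2, 69.6 and 72.1 TPM).

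**Figure D4:**
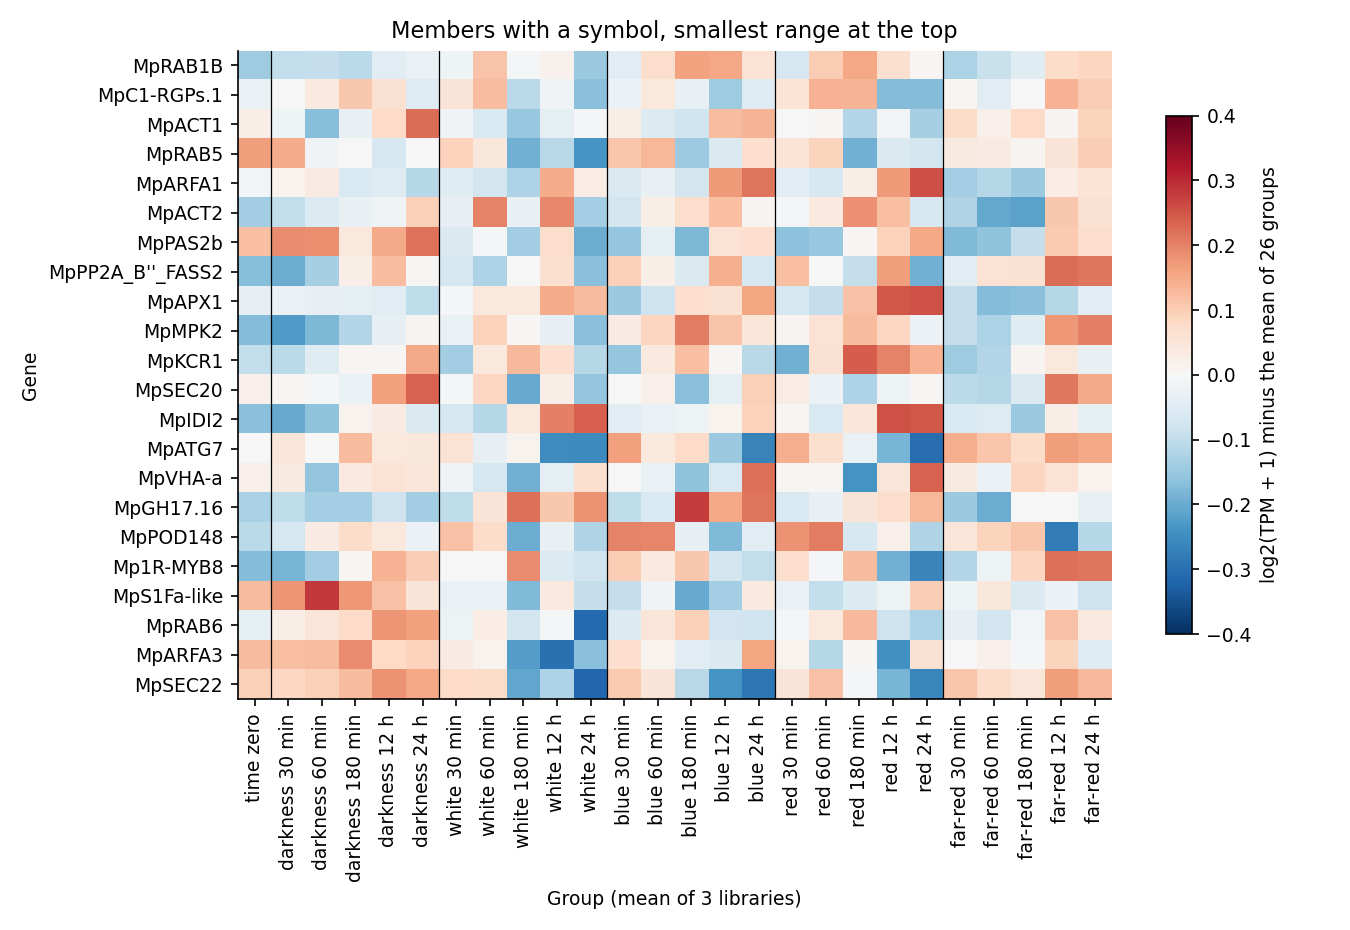
Group means of the 22 stable genes with a symbol, as log2(TPM + 1) minus each gene's mean over the 26 groups (colour), with groups on the horizontal axis and genes ordered by range, smallest at the top. MpSEC22, MpRAB6 and MpRAB5 are at their lowest in white light at 24 h, and MpATG7 is lower after 12 and 24 h of white, blue and red light than in far-red light.

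Some gene families held no stable gene among their genes with a symbol. The 98 stable genes without a symbol could not be placed in a family. None of 9 abundant histone genes of 28 measured met the limit (median range 0.94), and the widest were MpH2A.W.2 (1.82) and MpH2B.1 (1.53). None of 4 abundant HSP90 chaperone genes did (median 2.22), with MpHSP90-2 at 59.6 TPM in darkness at 60 min and 397 TPM in white light at 12 h, and MpHSP90-1 at 269 and 1477 TPM in darkness at 60 min and white light at 180 min. The 3 abundant fructose-bisphosphate aldolase genes had a median of 0.90, with MpFBA2 at 1.28 and MpFBA3 at 0.90. The 4 abundant late embryogenesis abundant genes had a median of 1.24, and MpLEA-like29 (2.48) and MpLEA-like56 (1.57) were the widest; this list was added after values were seen. At 4.91% of abundant genes, a list of this size holds few stable genes or none, so these counts are not set apart from the rest. Of 511 abundant genes with any symbol, 22 (4.31%) were stable.

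The extremes within the limit were spread unevenly over the groups, as they were for all abundant genes. Red light at 24 h held the highest group mean of 24 stable genes (20%, beside 15.0% of all abundant genes), darkness at 24 h of 16 (13.3%, beside 8.22%) and far-red light at 12 h of 14 (11.7%, beside 5.64%). White light at 24 h held the lowest group mean of 24 stable genes, 20% of them, beside 9.86% of all abundant genes. The 24 h time point of all treatments together held the highest value of 41.7% and the lowest value of 34.2% of stable genes, beside 40.2% and 40.2% of abundant genes. Relative to darkness at the same time, 89 of the 120 were lower and 31 higher in white light at 24 h. Their median log2 difference was -0.15, beside -0.01 over all abundant genes and 0.04 over all 13054 genes tested. How many of all abundant genes lay below darkness in white light at 24 h was not counted. The library with the smallest summed share of stable genes also came from that group.

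The largest single differences from darkness, taken by size for each light, stayed under the limit by selection. In white light at 24 h, Mp5g18860 was at 172 ± 6.6 TPM beside 244 ± 9.3 TPM in darkness (SD, n = 3), Mp6g05840 at 132 ± 6.1 beside 187 ± 8.0 TPM and Mp3g02920 at 251 ± 7.7 beside 352 ± 13 TPM. In the other direction Mp8g06150 was higher than darkness (61.3 ± 1.1 TPM, SD, n = 3) after 24 h of white (79.6 ± 1.7 TPM), red (84.4 ± 2.3 TPM) and far-red light (82.1 ± 1.3 TPM). Mp5g09420 was higher than darkness at 24 h (52.5 ± 0.51 TPM, SD, n = 3) in blue (70.8 ± 2.3 TPM) and far-red light (73.0 ± 5.0 TPM). The libraries of these 5 genes in light did not overlap with those in darkness at 24 h. Early differences were as large for Mp3g18370, which was at 51.0 ± 1.3 TPM in darkness at 30 min, 68.8 ± 2.6 TPM in blue light and 69.2 ± 0.80 TPM in red light (SD, n = 3). Far-red light held the lowest values of Mp3g08960 (199.8 ± 6.5 TPM at 24 h, beside 275 ± 7.1 TPM in darkness, SD, n = 3) and of Mp3g09080 (85.2 ± 2.1 TPM at 12 h, beside 111 ± 7.9 TPM). In red light at 24 h Mp7g09750 was higher (174 ± 19 beside 133 ± 2.3 TPM, SD, n = 3) and Mp7g16010 lower than darkness (75.8 ± 6.0 beside 104 ± 1.3 TPM). In blue light at 12 h Mp7g08870 was lower (72.3 ± 2.9 beside 97.8 ± 6.9 TPM, SD, n = 3). In far-red light at 24 h Mp1g20220 was higher (71.0 ± 1.4 beside 52.7 ± 4.9 TPM, SD, n = 3).

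Which genes count as stable depended on the scale of the libraries. TPM fixes the total per library, and the median log2 difference from darkness over all genes tested was 0.13 to 0.20 in white, blue and red light at 30 and 60 min. Median-of-ratios scaling, which sets a typical gene to no difference between libraries, used factors of 0.859 to 1.085. After it 142 genes met the same 2 conditions. Of the 120 stable genes 65 were among them, 54.2% of the 120 and 45.8% of the 142, and the other 55 no longer met the rule. Of the 22 with a symbol, 11 still met it, namely MpPP2A_B''_FASS2 (range 0.30), MpRAB1B (0.32), MpMPK2, Mp1R-MYB8, MpC1-RGPs.1, MpACT1 (0.43), MpACT2 (0.44), MpIDI2, MpGH17.16, MpARFA1 and MpSEC20. MpRAB5 (0.54), MpRAB6 (0.53), MpAPX1 (0.52), MpATG7 (0.53), MpVHA-a (0.52) and MpKCR1 (0.51) then had ranges of 0.51 to 0.54, and MpPOD148 (0.57), MpSEC22 (0.58), MpPAS2b (0.60), MpS1Fa-like (0.65) and MpARFA3 (0.66) had wider ones. Over all genes, 2522 were abundant on the scaled values, beside the 142 stable ones. The small GTPases then held 4 stable genes among 15 abundant ones, MpRAB1A and MpRAB8A taking the place of MpRAB5, MpRAB6 and MpARFA3. Protein phosphatase 2A held 3 among 6, with MpPP2A and MpPP2A_B added. SNARE genes held 3 among 13, with MpGOS12 and MpVAMP72A added and MpSEC22 lost. Actins and tubulins kept 2 among 4, and MAP kinase pathway genes 1 among 10. Vacuolar proton pumps, ascorbate peroxidases, class III peroxidases and autophagy genes then held 0. The added genes are named after their values were seen.

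Scaling also moved directions. On the TPM scale the median difference of the stable genes from darkness lay between -0.15 and 0.05 over the 20 combinations of light and time, above 0 in 6 of them. On the scaled values it was below 0 in all 20, from -0.24 in red and blue light at 30 min to -0.02 in red light at 24 h. The 6 medians above 0 changed sign. Over all genes tested the scaled medians ran from -0.028 (blue light at 30 min) to 0.0069 (red light at 24 h). The stable genes were chosen as level in TPM, so their shift follows in part from the scaling factors. A fall of these genes in light is not read from it. White light at 24 h kept its place on both scales as the time at which white light lay farthest under darkness (-0.20 scaled). It also held the lowest group mean of 19 of the 120 genes after scaling, beside 24 before. This was 15.8% of them, beside 9.53% of the 2445 abundant genes after scaling. Both gene sets were chosen on the TPM scale. Of the 16 abundant GTPase genes, 11 were lowest there after scaling, beside 10 before.

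**Figure D5:**
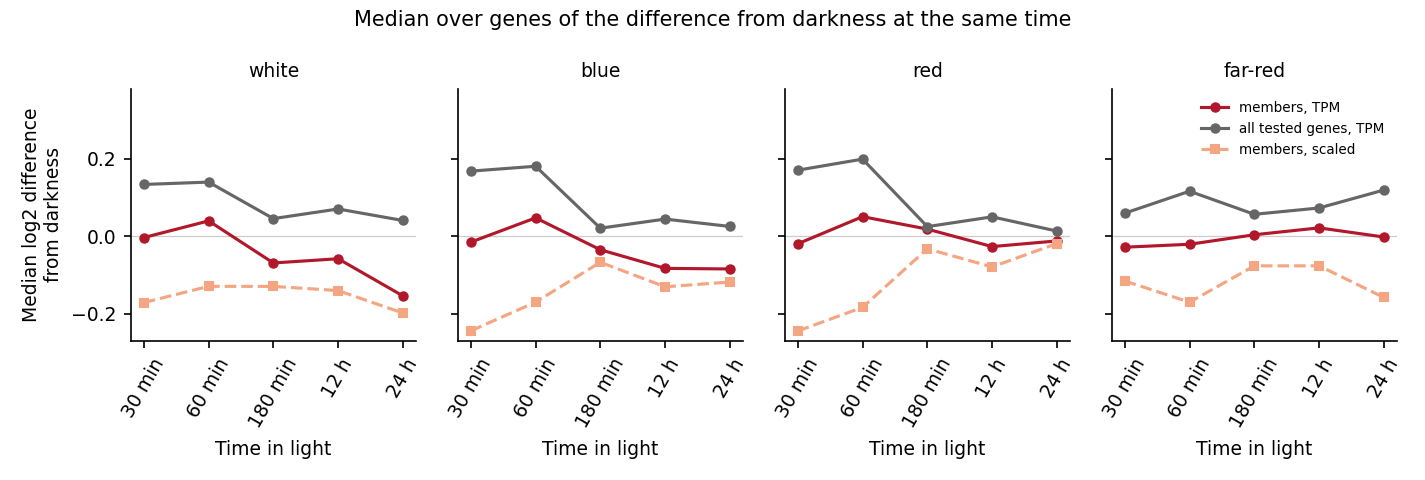
Median over genes of the log2 difference from darkness at the same time (vertical axis) by time in light (horizontal axis, not to scale) for each light: the 120 stable genes on the TPM scale (red), all 13054 genes tested on the TPM scale (grey) and the stable genes after median-of-ratios scaling (orange, dashed). On the TPM scale the stable genes lie between -0.15 (white light at 24 h) and 0.05 (red light at 60 min), and after scaling they lie below 0 at every point.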

How the data were processed

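The deposited values are TPM of 19355 genes in 78 libraries, and a further deposited table holds 26 group means in TPM, which equal the mean of the 3 replicates within 1e-06; every column sums to 1000000. Reads were paired, 150 bases long, from poly(A) libraries, per the labels' protocols. Mapping used STAR, per the submitters' processing notes. Neither its version nor the build, annotation or quantifier behind the TPM is given in the sources used here. Depth is unknown, and TPM allows no counting interval.

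Symbols were matched by number to locus tags of assembly MpTak2_v7.1 (17384 identifiers matched, 3091 with a symbol). As a check, 6 replication licensing (MCM) genes correlated across the 26 group means, with a mean r of 0.986. Their neighbours in identifier order gave -0.298. No sequence or coordinate was used here.

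Members were found with Python 3.11.15, pandas 2.3.3 and numpy 2.4.6. Genes at 1 TPM or more in 3 or more libraries (13054) were fitted on log2(TPM + 1) in limma 3.58.1 (R 4.3.3), with all 78 libraries together, 1 mean per group and a prior variance that follows mean intensity; the script was tested on simulated data. Errors are SD over 3 libraries.

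The members and the gene lists were chosen with earlier results of these data known. Lists that need product annotation were not analysed here. Every gene list holds only genes with a symbol, so a family can have further genes that were not counted. Named genes are, by rule, the 10 with the smallest range, the 10 of highest mean TPM, those nearest both limits, up to 4 stable and 2 widest abundant genes of each list, the reference genes, and the 3 largest differences from darkness in each direction per light; all members with a symbol are named besides. Alternatives were another pseudocount, other limits, scaling, averaging, no filter on low values, no intensity trend, left-out libraries and a replicate block. Same-numbered libraries did not deviate together (mean r of deviations -0.0016, from -0.37 to 0.34).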

Additional observations from a re-analysis of the deposited data

Results flagged for a closer look

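Some stable genes lay on opposite sides of darkness in different lights at the same time: all 3 libraries of 1 light were above all 3 of darkness, and all 3 of another light below. Over 120 genes and 5 times this held in 68 of 600 cases (11.3%), in 52 genes, and 34 of the 68 were at 24 h. For all abundant genes the share was 14.4%. The dark libraries are shared by both lights of a case, and the difference between the lights was not tested. The gaps below are log2 differences between the highest and the lowest such light, on the TPM scale. The side of darkness was judged on that scale only and was not counted again after scaling. In far-red light at 24 h, scaling moved the median difference of the stable genes from darkness from -0.0023 to -0.16. A small rise or fall from darkness can therefore change side with the scale.

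The actin and phosphatase genes gave wide cases. MpACT2 was higher in white light than in far-red light at 60 min, by 0.40. At 180 min it was again 0.40, between red (123, 126 and 122 TPM) and far-red light (94.9, 94.6 and 90.7 TPM), with darkness between them (107, 113 and 99.7 TPM). MpACT1 at 180 min went the other way, with far-red above white light by 0.23. MpPP2A_B''_FASS2 at 24 h was higher in far-red (82.3, 73.4 and 70.1 TPM) than in red light (60.1, 56.8 and 53.0 TPM), a gap of 0.40, with darkness at 66.2, 63.8 and 65.0 TPM.

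Far-red light was also on the upper side for MpATG7 at 12 h, where it exceeded white light by 0.42 (80.0, 72.9 and 77.7 TPM beside 57.2, 58.3 and 56.5 TPM, and 72.6, 71.1 and 67.9 TPM in darkness). MpMPK2 at 24 h had a gap of 0.37 between far-red and white light. MpRAB1B had 0.24 between the same lights at 24 h, and MpC1-RGPs.1 had 0.27 between far-red and red light at that time. Among genes without a symbol, far-red light was above white light for Mp4g09690 at 180 min (0.36) and Mp3g11670 at 12 h (0.23). It was also above white light for Mp8g06150 at 180 min (0.21) and Mp2g03120 at 60 min (0.20). For Mp3g18880 it was above red light at 12 h (0.19) and 24 h (0.11). White and blue light lay under darkness too for Mp3g18880 at 12 h.

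Far-red light was on the lower side for MpAPX1 at 60 min (0.21, under white) and at 180 min (0.29, under red), for Mp3g09080 at 30 min (0.11, under red) and 24 h (0.37, under blue), for Mp4g02150 at 180 min (0.25, under red), for Mp5g16750 at 180 min (0.27, under red) and for Mp6g05840 at 30 min (0.19, under blue).

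Other cases set white or blue light below another light. MpARFA3 at 24 h was higher in blue than in white light by 0.32. Mp5g16750 at 24 h had a gap of 0.45 between red (1560, 1559 and 1651 TPM) and white light (1178, 1197 and 1125 TPM), with darkness at 1326, 1368 and 1379 TPM, and a gap of 0.17 between red and blue light at 12 h. Red light exceeded white light at 24 h for Mp3g01990 (0.25) and Mp2g03120 (0.23), and exceeded blue light at 24 h for Mp7g04290 (0.38) and Mp4g09690 (0.27). Far-red light also lay under darkness at 24 h for Mp5g16750, Mp2g03120 and Mp4g09690, though it was not the lowest light. For Mp2g03120 and Mp4g09690 it had been above darkness at an earlier time.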

How the results depend on the processing

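The number of stable genes was 120 and stayed within 1.5 times of that under another pseudocount (117), median-of-ratios scaling (142), means of log2 values (121) and leaving out replicate 1, 2 or 3 of every group (105 to 120), time zero (122), replicate 3 of darkness at 60 min (114) or, added after the data were seen, replicate 1 of darkness at 12 h (119, Mp1g23710 lost). It was 192 at a level of 25 TPM, 67 at 100 TPM, 32 at a range of 0.4, 261 at a range of 0.6 and 33 over the 78 single libraries, the last also added later. Membership moved more than the count: scaling kept 65 of the 120 genes, and without replicate 1, 2 or 3 of every group 100, 102 and 109 were kept. The replicate block in limma gave 120, 118, 117, 117, 108 and 88 stable genes differing among the groups, from darkness in white, blue, red and far-red light, and in continued darkness from time zero, beside 120, 118, 117, 116, 108 and 89 without it. Counts of stable genes by limma stayed within 1.5 times under every alternative run. Over all genes tested, the calls with a log2 difference of 1 or more went from 1462 to 2236 in far-red light and from 518 to 1065 in continued darkness with a pseudocount of 0.1, and the other counts stayed within 1.5 times. Of 546 ranges of named genes recomputed under 6 alternatives, 454 moved by less than the SD between replicates, 71 were larger by more and 21 smaller by more, with 48 and 17 of these under scaling. The alternative window for promoter motifs was not run, since no promoter sequence was used here. With TPM alone, depth sets an unknown limit, and the split of reads among near copies cannot be checked.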
